A study of Mus musculus with 48 samples.

Results

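The keratin gene clusters of the mouse genome were examined for open chromatin in a model of small cell lung cancer, a neuroendocrine carcinoma. Members were the authors' merged ATAC-seq peaks (build mm9) whose centre lay in an interval of 1.2 Mb on chromosome 11 that holds the type I keratins (outermost member centres at 98972665 and 100148499) or in an interval on chromosome 15 that holds the type II keratins (outermost member centres at 101157911 and 101896301). The last 0.1 Mb of the type II interval was set apart as the Krt8 and Krt18 segment. In all, 97 of 114043 merged peaks were members: 33 in the type I interval, 45 in the type II interval without Krt8 and Krt18, and 19 in the Krt8 and Krt18 segment. No genome or annotation of mm9 was used here, so peaks are named by position and none was assigned to a gene.

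ATAC-seq marks accessible DNA by the insertion of adapters with the Tn5 transposase. All 48 libraries carried the genotype Trp53-/-;Rb1-/-;p130-/-;R26mG, in which Cre deletes 3 tumor suppressor genes and switches on a green reporter. Cre came from an adenovirus. In 30 libraries the viral CMV promoter, active in many cell types, drove it (Ad-CMV-Cre), and in 18 the CGRP promoter, active in neuroendocrine cells (Ad-CGRP-Cre). The first comparison set 8 Ad-CMV-Cre libraries with amplification of Nfib, the gene of the transcription factor nuclear factor I/B, against 7 Ad-CMV-Cre libraries without it. Of the 8 amplified libraries, 5 were liver metastases, 1 was a lymph node metastasis and 2 were lung tumors, while all 7 others were lung tumors, so amplification and metastasis cannot be told apart in most of these libraries. The second comparison set 7 Ad-CGRP-Cre liver metastases against 11 Ad-CGRP-Cre lung tumors, of which 1 carried an Nfib amplification. The liver metastases all came from preparation batch 2 and the lung tumors from batches 2 (7 libraries) and 3 (4 libraries). A further 15 Ad-CMV-Cre libraries, labelled as low in enrichment, entered no comparison. Ages of the mice were not given in the sources used here. Since library titles share codes, some libraries may come from 1 animal, and a p-value then measures only how libraries vary. The tissue is bulk: fewer cells with an open site and less opening per cell cannot be told apart. No expression was measured, so keratin levels could not be checked.

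Keratins are the intermediate filament proteins of epithelia. A filament forms from pairs of 1 type I and 1 type II keratin, and the pair in use follows the kind of epithelium: Krt8 with Krt18 in simple epithelia such as the lining of the gut, Krt5 with Krt14 in basal cells of stratified epithelia, and Krt1 with Krt10 in the upper layers of the epidermis. Type I genes lie in one cluster on chromosome 11, which also holds the keratin-associated protein genes of hair, and type II genes in another on chromosome 15. Krt18 is the exception, a type I gene beside its partner Krt8 at the edge of the type II cluster. In RefSeq (GRCm38.p6, a different build, used for names and order only) the type I block ran over 65 protein-coding genes, among them 27 Krt genes and 23 Krtap genes. It lay between Smarce1, which encodes a subunit of the SWI/SNF chromatin remodeller, and Eif1, a translation initiation factor. The type II block with Krt18 held 26 Krt genes among 27 protein-coding genes, with Krt78, Krt8, Krt18 and then Eif4b, another translation initiation factor, in this order at its end. In that build the blocks spanned 1040 and 684 kb, less than the 1200 and 750 kb of the intervals. Krt8 to Krt18 spanned 35.3 kb there, less than the 0.1 Mb of the segment named after them. Some members may therefore lie outside the keratin blocks, and some peaks of that segment outside the stretch from Krt8 to Krt18. Of the keratin genes listed for this account, 27 of 27 type I genes and 26 of 27 on the type II list were in the table, Krt85 being the other.

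The promoters of Krt8 and Krt18 are shown because no called peak of their segment was raised in the first comparison and most were lowered. They run from 250 bases before to 30 bases after the RefSeq start, 5′ to 3′ on the gene's own strand, in GRCm38.p6 coordinates that cannot be set against the mm9 peaks (Krt8 on the minus strand of chr15:102004313-102004592, Krt18 on the plus strand of chr15:102027966-102028245). Capitals mark TATAAA on either strand, where TTTATA is its reverse complement.
Krt8: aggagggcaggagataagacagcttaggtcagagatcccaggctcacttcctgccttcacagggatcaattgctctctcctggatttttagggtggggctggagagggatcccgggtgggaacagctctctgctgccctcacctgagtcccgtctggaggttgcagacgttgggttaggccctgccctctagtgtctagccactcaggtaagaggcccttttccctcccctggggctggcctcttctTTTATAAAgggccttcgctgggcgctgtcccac
Krt18: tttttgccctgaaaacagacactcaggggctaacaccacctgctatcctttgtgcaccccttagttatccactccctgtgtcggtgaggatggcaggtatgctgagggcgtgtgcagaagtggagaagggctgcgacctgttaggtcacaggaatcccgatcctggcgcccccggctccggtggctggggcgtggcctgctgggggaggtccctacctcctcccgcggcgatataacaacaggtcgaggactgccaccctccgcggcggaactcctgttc
The Krt8 window held the TATAAA motif on both strands in overlapping positions at its annotated start, and the Krt18 window did not hold it. TATAAA was looked for after the sequences had been seen, and 13.1% of the 32851 promoter windows of the same length in the RefSeq table held it. The palindromic site of nuclear factor I proteins, TTGGC followed by any 5 bases and GCCAA, had no match on either strand in the windows of Krt8, Krt18, Krt7, Krt5 and Krt14, and 0.0365% of all windows held it. Its single arm TTGGC had no match in these 5 windows either, on either strand, against 44.7% of all windows. No match says only that these letters are not in these windows. Krt19 was looked for too, but no promoter sequence was at hand for it, so its window was not searched.

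In the Nfib comparison the keratin intervals lost accessibility at more sites than they gained it. A peak was called at the authors' deposited adjusted p under 0.05. Of the 97 members, 44 were called lower in the Nfib-amplified libraries, 9 were called higher and 44 were not called. Over all peaks of the series, on the authors' scaling, 12.2% were called lower and 34.3% higher. Among members these shares were 45.4% and 9.28%. The median log2 fold change (amplified over not amplified) was -0.80 over the members and 0.60 over all peaks, and 72 of 97 members lay below 0. With log2 fold changes centred on the median of all peaks, all 44 lowered members were still called lower, 5 of the 9 raised ones were still called higher, and 92.2% rather than 83.0% of the called members were lower. Under that centring the balance over all peaks turned, to 25.6% called lower and 19.9% higher, so an opposite direction of members and all peaks holds on the authors' scaling only. Amplified and other libraries came from preparation batches 1 and 3 in similar numbers (2 and 6 against 2 and 5), and a batch effect on these sites was not tested.

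**Figure D1:**
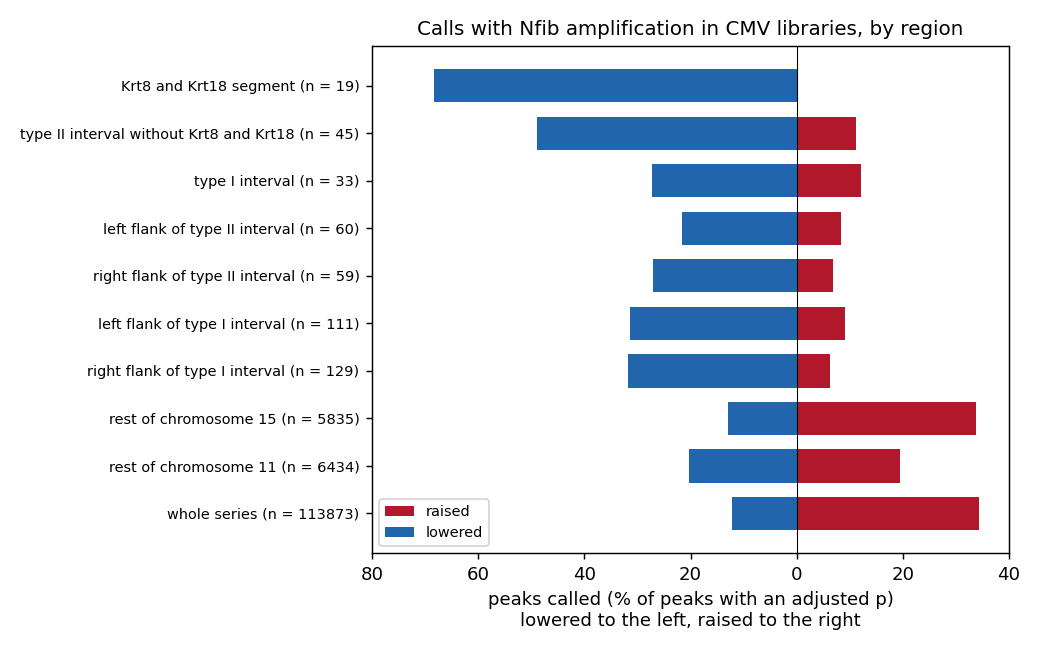
Share of peaks called lower (blue, to the left) and higher (red, to the right) in the Nfib-amplified Ad-CMV-Cre libraries, as a percentage of the peaks with an adjusted p, for each keratin interval, flanks as long as the whole interval on both sides, the rest of both chromosomes and the whole series. Lowered calls reach 68.4% in the Krt8 and Krt18 segment, and the flanks lie between 21.7% and 31.8%.

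The neighbourhoods of the intervals shared part of this direction. On chromosome 11, 31.5% and 31.8% of peaks in the flanks left and right of the type I interval were called lower, against 27.3% in the interval itself (9 of 33) and 20.3% on the rest of the chromosome. By share of lowered calls the type I interval thus lay near its surroundings. Its median of -0.32 stood between those of the flanks (-0.51 on the left, -0.50 on the right) and -0.05 on the rest of chromosome 11. Its lowered peaks fell further, with a median of -2.28 against -1.28 in the left and -1.01 in the right flank. The median SE was 0.63 in the interval and 0.42 and 0.38 in these flanks, and a larger SE asks for a larger change before a call. On chromosome 15, 21.7% and 27.1% of flanking peaks were called lower, against 48.9% of the type II interval without Krt8 and Krt18 (22 of 45) and 68.4% of the Krt8 and Krt18 segment (13 of 19). On the rest of the chromosome 33.7% of peaks were called higher, against 11.1% and 0.0% in these keratin regions. In the left and right flanks 8.33% and 6.78% were called higher, so few raised calls were a trait of the surroundings too. The median log2 fold changes were -0.38 in the left and -0.34 in the right flank, -0.82 in the type II interval, -1.03 in the Krt8 and Krt18 segment and 0.54 on the rest of chromosome 15. These shares are descriptions of neighbouring peaks that share libraries, with no test between regions.

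The mean normalised count, a deposited value averaged over libraries that stands for how much signal a peak carries, had a median of 15.9 in the type I interval, 27.5 in the type II interval and 39.5 in the Krt8 and Krt18 segment, against 21.2 over all peaks. In the left and right flanks of the type I interval the medians were 22.1 and 27.8. Stronger peaks are called more easily. Among the 59 members with a mean count of at least 20, 36 were called lower and 5 higher. The shares over all peaks of that strength were 17.5% and 34.3%. The deposited tables also hold a stricter test, read from its values as one against an absolute log2 fold change of 0.5. It called 23 members lower and 5 higher, where 4.64% and 19.0% of all peaks were called. In the type I interval it called 6 of 33 peaks lower, against 13 of 111 in its left and 14 of 129 in its right flank.

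The Krt8 and Krt18 segment held 190 peaks per Mb over its 0.1 Mb. Longer regions averaged 69.2 in the type II interval, 27.5 in the type I interval and 78.7 to 108 in the flanks. That density was matched within the type II interval. Its adjoining 50 kb bins from 101.20 to 101.30 Mb held 11 and 8 peaks, and those of the segment 13 and 6. Of the segment's 19 peaks, 13 were called lower, from 1.54-fold to 18.0-fold, and 18 lay below 0. Its 3 peaks of highest mean count stood close together. The strongest, chr15:101847210-101847710, had a mean normalised count of 216 and a log2 fold change of -0.94 ± 0.20 (SE) in the authors' deposited table, which is 1.92-fold lower (adjusted p = 3.606e-05, DESeq2). The next, chr15:101848273-101848773, with a count of 187, stood at -1.13 ± 0.23 in the deposited table (adjusted p = 1.305e-05, DESeq2). The third, chr15:101835767-101836267, with a count of 142, stood at -1.75 ± 0.45 there (adjusted p = 5.718e-04, DESeq2). The most accessible sites of the segment were therefore all lower in the amplified libraries, by 1.92-fold to 3.37-fold.

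The largest drop of any member was at chr15:101886458-101886958, a weaker peak with a mean count of 22.2, where the authors' deposited table gives -4.17 ± 0.71 (18.0-fold lower, adjusted p = 2.280e-07, DESeq2). No summit of the pool of 19 Ad-CMV-Cre libraries fell in this peak. Next in size within the segment were chr15:101834548-101835048 at -2.28 ± 0.51 in the deposited table and a mean count of 105, chr15:101825930-101826430 at -2.19 ± 0.58, chr15:101846502-101847002 at -1.90 ± 0.41 and chr15:101824817-101825317 at -1.89 ± 0.42, all with an adjusted p of at most 7.755e-04 (DESeq2). From 101.82 to 101.88 Mb, 10 of 11 consecutive peaks were called lower, the exception being chr15:101833478-101833978 at -0.62 ± 0.30 (deposited adjusted p = 0.0747, DESeq2). The other 3 lowered peaks of this row, chr15:101858387-101858887, chr15:101864834-101865334 and chr15:101872449-101872949, stood at -1.15, -1.01 and -1.23 in the deposited table.

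Lowered calls were sparser toward both ends of the segment. The row of lowered peaks in its middle was picked out after the calls were seen. The contrast with the ends follows partly from that choice and was not tested. Of the 5 peaks nearest its lower bound, chr15:101807705-101808205 (-0.62 ± 0.18, deposited) and chr15:101811296-101811796 (-1.03 ± 0.42, deposited) were called lower. The other 3, at -0.14, -0.40 and -0.37 in the deposited table, were not called. Of the last 3, only the peak with the largest drop was called: chr15:101882427-101882927 had the segment's single value above 0 (0.66 ± 0.31, deposited adjusted p = 0.0664, DESeq2), and chr15:101896051-101896551 stood at -0.30 ± 0.30 in the deposited table. Across the lower bound of the segment, the last peak before it stood at -0.44 and the first after it at -0.14 in the deposited table, neither of them called.

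**Figure D2:**
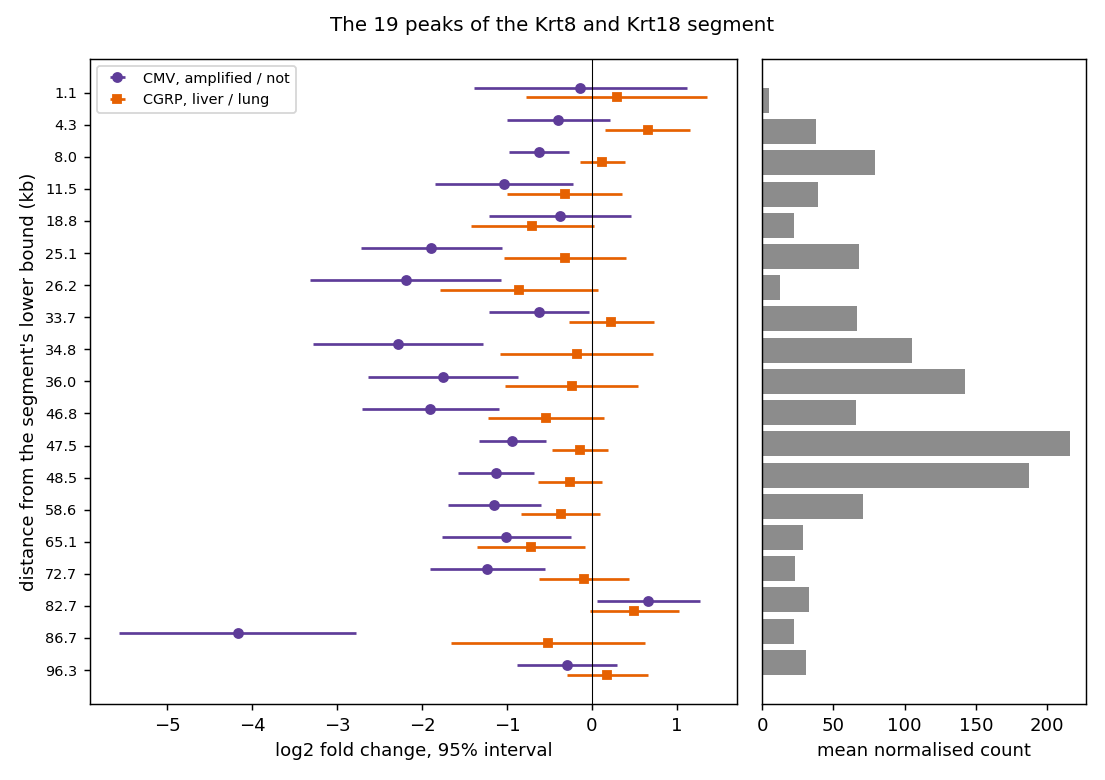
All 19 peaks of the Krt8 and Krt18 segment in order of position, with log2 fold changes and 95% intervals for the Nfib comparison in Ad-CMV-Cre libraries (circles) and for liver over lung in Ad-CGRP-Cre libraries (squares), and the mean normalised count beside them (grey bars from 0). In the Nfib comparison 18 of 19 points lie left of 0, while 18 of the 19 Ad-CGRP-Cre points lie from -0.86 to 0.50.

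In the type II interval without Krt8 and Krt18, 22 peaks were called lower, from 1.47-fold to 9.95-fold, and 5 higher. Its 3 peaks of highest mean count, 145, 128 and 123, stood at -0.60 ± 0.22, -1.27 ± 0.28 and -1.0 ± 0.29 in the authors' deposited table (chr15:101245216-101245716, chr15:101256745-101257245 and chr15:101218461-101218961), and all 3 were called lower. The largest drop was at chr15:101285142-101285642, with -3.31 ± 0.65 in the deposited table (9.95-fold lower, adjusted p = 6.699e-06, DESeq2). It was followed by chr15:101414927-101415427 at -2.76 ± 0.49 in the deposited table (6.77-fold lower). A pair of neighbours, chr15:101265361-101265861 and chr15:101266979-101267479, fell together, at -2.54 ± 0.53 and -2.48 ± 0.66 in the deposited table. The fifth, chr15:101525082-101525582, stood at -2.10 ± 0.56 there. Lowered peaks were spread over the interval: each of the bins of 50 kb that held a peak held at least 1 lowered peak.

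The 5 raised peaks of the type II interval lay in 3 places. At chr15:101207080-101207580 and chr15:101209082-101209582 the deposited log2 fold changes were 1.21 ± 0.46 and 1.39 ± 0.36, or 2.31-fold and 2.62-fold higher. Peaks on both sides of this pair, chr15:101206209-101206709 at 0.50 and chr15:101212120-101212620 at 1.02 in the deposited table, were not called. A second pair, chr15:101321826-101322326 and chr15:101325732-101326232, stood at 2.16 ± 0.45 and 1.62 ± 0.45 in the deposited table. The single peak chr15:101543409-101543909 had the largest rise of all members, 4.20 ± 0.94 in the deposited table (18.4-fold higher, adjusted p = 7.716e-05, DESeq2), from a mean count of only 5.86. After centring on the median of all peaks, 2 of these 5 remained called.

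In the type I interval 9 peaks were called lower, from 2.42-fold to 10.3-fold, and 4 higher. Most of the lowered ones gathered near the upper end. Of the 6 peaks from 99.95 to 100.05 Mb, 5 were called lower, among them chr11:99974879-99975379 with the interval's largest drop, -3.36 ± 0.66 in the authors' deposited table (10.3-fold lower, adjusted p = 6.627e-06, DESeq2), and chr11:100007139-100007639 at -2.42 ± 0.66 in the deposited table. Just below that stretch stood chr11:99928863-99929363, one of the 3 strongest peaks of the interval, with a deposited value of -2.28 ± 0.52. Farther up, beyond the uncalled peak chr11:100061359-100061859, stood chr11:100139203-100139703. It had a count of 77.3 and a deposited value of -3.12 ± 0.49 (8.68-fold lower, adjusted p = 1.871e-08, DESeq2). Away from this end, chr11:99370619-99371119 had a deposited value of -3.11 ± 0.79.

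The raised peaks of the type I interval lay elsewhere. The peak chr11:98989405-98989905 stood at 3.29 ± 0.49 in the authors' deposited table (9.80-fold higher, adjusted p = 2.373e-09, DESeq2), and chr11:99401067-99401567 at 3.98 ± 0.82 (15.8-fold higher, adjusted p = 1.906e-05, DESeq2). The other 2 were chr11:99839564-99840064 at 3.07 ± 0.94 and chr11:99847023-99847523 at 1.05 ± 0.23 in the deposited table. The second of these had a mean count of 109, and the strongest peak of the interval, chr11:99855226-99855726 with a count of 144, lay close by and was not called (0.33 ± 0.18, deposited adjusted p = 0.118, DESeq2). After centring on the median of all peaks its value was -0.28. Of the 4 raised peaks, 3 also passed the stricter deposited test.

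**Figure D3:**
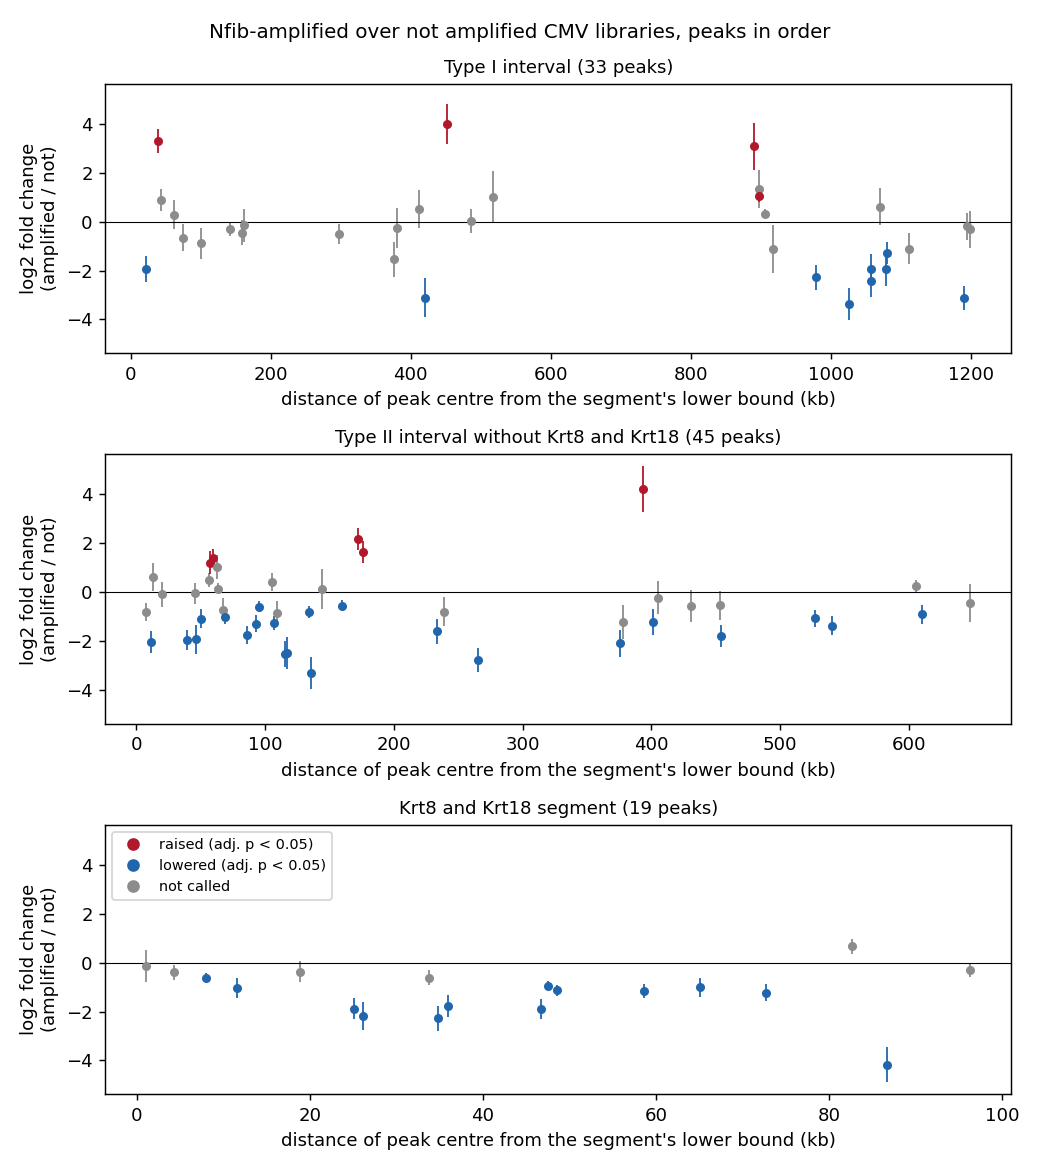
Deposited log2 fold change (amplified over not amplified Ad-CMV-Cre libraries) with its SE for every member, by the distance of the peak centre from the lower bound of its interval or segment. Of the 9 lowered peaks (blue) in the type I interval, 7 lie near its upper end; they are spread over the type II interval and fill the middle of the Krt8 and Krt18 segment; raised peaks (red) occur in the upper and middle panels only.

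No member passed the test between liver metastases and lung tumors in the Ad-CGRP-Cre libraries. Of the 93 members with an adjusted p, 0 were called (DESeq2, authors' deposited table), 3 had an unadjusted p under 0.05, and the stricter deposited test called 0 too. Over the whole series 10955 of 114043 merged peaks had an unadjusted p under 0.05 (DESeq2), a larger share than among the members. Calls were rare in this comparison, at 0.0752% of all peaks in the direction of liver and 0.779% in that of lung. The median log2 fold change (liver over lung) was 0.33 in the type I interval, -0.05 in the type II interval and -0.24 in the Krt8 and Krt18 segment. The 3 peaks with an unadjusted p under 0.05 were chr15:101321826-101322326 at 1.05 ± 0.40, chr15:101804002-101804502 at 0.66 ± 0.25 and chr15:101864834-101865334 at -0.71 ± 0.32 in the deposited table, and their adjusted p was at least 0.235 (DESeq2).

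The median deposited SE over members was 0.49 in the Nfib comparison and 0.41 in the liver comparison. Of the 44 members lowered with Nfib amplification, 27 lay below 0 and 17 above 0 in the Ad-CGRP-Cre comparison, between -0.88 and 0.83. For 27 of the 44 the 95% interval in the Ad-CGRP-Cre comparison excluded a drop to a log2 of -1, and for the other 17 it did not. In the Krt8 and Krt18 segment 12 of the 13 lowered peaks lay below 0 there too, but 8 of the 13 intervals reached -1. At the strongest peak, chr15:101847210-101847710, the deposited value was -0.14, with an interval from -0.47 to 0.19. At chr15:101886458-101886958, the largest drop with Nfib, it was -0.52, with an interval from -1.66 to 0.63.

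A z test compared the changes themselves, as the Nfib log2 fold change minus the liver log2 fold change, with Benjamini-Hochberg adjustment over all peaks. It called 31 of 97 members lower in the Nfib comparison and 6 higher, where 5.62% and 17.8% of all peaks were called. Of the 44 lowered members 30 were among the 31, and all 6 were among the 9 raised. By region, 10 of 19 peaks of the Krt8 and Krt18 segment were called lower, 14 of 45 of the type II interval and 7 of 33 of the type I interval. In the left and right flanks of the type I interval 32 of 111 and 29 of 129 peaks were called lower. In those of the type II interval 10 of 60 and 16 of 59 were. The share in the type I interval thus did not exceed that of its flanks. The difference was largest at chr11:99974879-99975379, with -3.73 (adjusted p = 0.000520, z test on DESeq2 values), among lower calls, and at chr15:101543409-101543909, with 4.79 (adjusted p = 0.00375, z test on DESeq2 values), among higher ones. With a Bonferroni adjustment 0 members were called lower and 1 higher, and with both comparisons centred on their medians 54 were lower and 3 higher. Vector, Nfib state and organ change together between these comparisons, so the source of a difference cannot be told apart.

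Across the 19 peaks of the Krt8 and Krt18 segment the log2 fold changes of the comparisons had a Pearson correlation of 0.593 and a Spearman correlation of 0.604. In the type II interval the values were 0.21 and 0.306 over 45 peaks, and in the type I interval -0.032 and -0.114 over 33. The comparisons hold different libraries, while neighbouring peaks share them, so these are descriptions without a p.

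**Figure D4:**
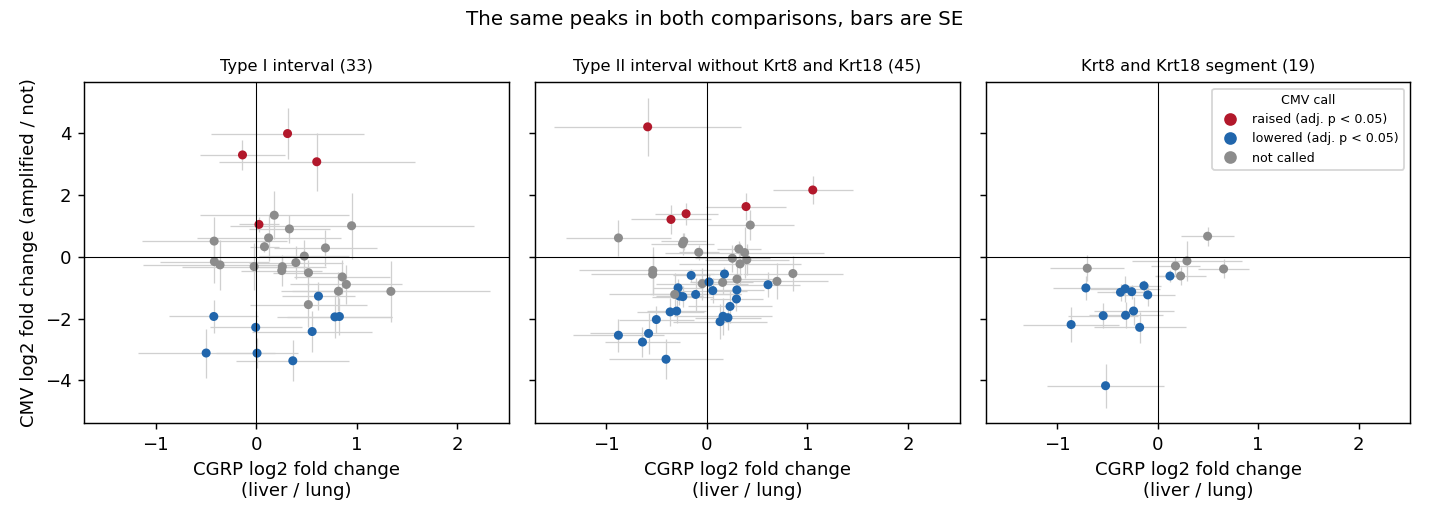
Deposited log2 fold change of each member in the Nfib comparison of Ad-CMV-Cre libraries (vertical) against liver over lung in Ad-CGRP-Cre libraries (horizontal), with SE bars, coloured by the call in the Nfib comparison. Vertical values span -4.17 to 4.20, horizontal ones -0.88 to 1.34, and in the Krt8 and Krt18 panel 13 of 19 points are below 0 on both axes.

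Peak summits were deposited for 3 pools of libraries: 19 Ad-CMV-Cre libraries of preparation batch 1, 14 Ad-CGRP-Cre libraries of batch 2, and a mixed pool of 15 libraries of batch 3 (11 Ad-CMV-Cre and 4 Ad-CGRP-Cre). Of the 19 libraries in the Ad-CMV-Cre pool, 15 were those labelled low in enrichment. The rest were libraries of the Nfib comparison, 2 amplified and 2 not amplified. Most members held a summit in each pool: 85 of 97 held a summit of the Ad-CMV-Cre pool (87.6%, Wilson 95% interval 79.6% to 92.8%), 92 of the Ad-CGRP-Cre pool (94.8%, 88.5% to 97.8%) and 90 of the mixed pool (92.8%, 85.8% to 96.5%). These intervals cover counting error only. Each merged peak is centred on a summit of a pool, so holding a summit of some pool follows from how peaks were made. Over all merged peaks the shares were 88.6%, 75.0% and 89.5%. In the flanks of the intervals the share with a summit of the Ad-CGRP-Cre pool was 89.2% to 96.6%, so the members' 94.8% lay within the range of their surroundings. A summit of every pool was held by 77 members (79.4%) and by 64.8% of all merged peaks.

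All 19 peaks of the Krt8 and Krt18 segment had a summit of the Ad-CGRP-Cre pool, 17 had one of the Ad-CMV-Cre pool and 18 of the mixed pool. Of the 12 members without a summit of the Ad-CMV-Cre pool, 6 were called lower with Nfib amplification, 6 were not called and 0 were called higher. Among all merged peaks without such a summit 26.8% were called lower and 10.5% higher. Over all members 45.4% were called lower, so the 6 of 12 lay near the share of the members as a whole. Of the 5 members without a summit of the Ad-CGRP-Cre pool, 3 were called higher, among them the peak with the largest rise, chr15:101543409-101543909, and 0 were called lower. Among all merged peaks without a summit of that pool 62.3% were called higher and 1.04% lower, shares near those of these few members.

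Outside the merged peaks, the pools had further summits in these intervals. Of 54, 59 and 62 summits of the Ad-CMV-Cre, Ad-CGRP-Cre and mixed pools in the type I interval, 53.7%, 55.9% and 53.2% lay inside a merged peak. In the Krt8 and Krt18 segment, 18 of 22, 19 of 23 and 18 of 24 did. Over the whole series the shares were 42.5%, 51.1% and 51.4%. The summit scores were read as −log10 of a q-value and used only within a list. For the Ad-CGRP-Cre pool the median in the Krt8 and Krt18 segment was 117 inside merged peaks and 61.6 outside, the latter over only 4 summits. In the type I interval it was 46.3 inside and 7.92 outside. Since merged peaks are centred on pool summits, peaks and scores are not independent, and no conclusion is drawn from this difference.

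The type I interval held a long stretch without a merged peak, chr11:99467935-99839563, of 372 kb. On chromosome 11, 10 such gaps between neighbouring peaks were at least as long, itself included, and 206 of 114014 in the genome. The stretch held 6 weak summits of the Ad-CMV-Cre pool (highest score 8.22), 2 of the Ad-CGRP-Cre pool (3.81) and 7 of the mixed pool (6.38). The longest stretch in the type II interval, chr15:101415428-101525081, of 110 kb, was bounded by peaks that were both called lower in the Nfib comparison. Gaps at least as long numbered 64 on chromosome 15 and 1318 in the genome. It held 1 summit of the Ad-CMV-Cre pool (score 13.7), 3 of the Ad-CGRP-Cre pool (highest score 58.4) and 2 of the mixed pool (17.4).

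**Figure D5:**
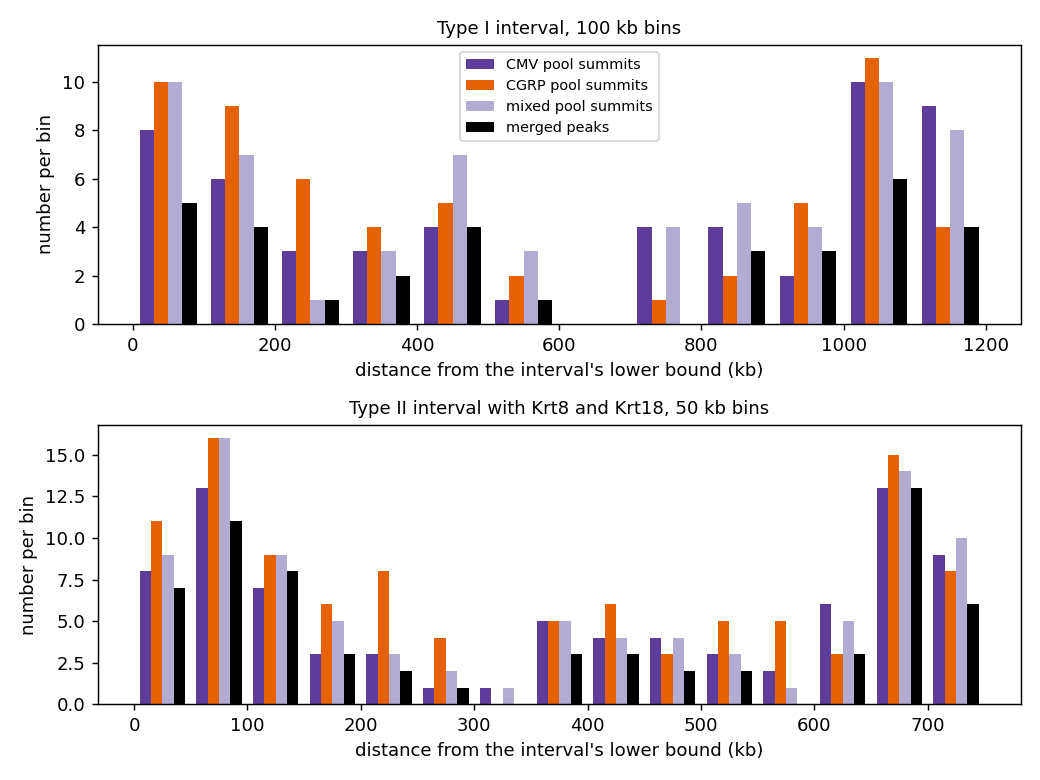
Number of summits of each pool and of merged peaks by distance from the lower bound of the interval, in bins of 100 kb (type I) and 50 kb (type II with Krt8 and Krt18). Adjoining bins of the type I interval hold no merged peak, and the bin with most merged peaks in the type II interval, with 13, is the first of the Krt8 and Krt18 segment.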

How the data were processed

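ATAC-seq was performed on 48 libraries of mouse lung tumors and metastases. The submitters' processing notes name mm9, Bowtie2, MACS2 and DESeq2 without versions. Duplicate removal and a Tn5 shift were not given in the sources used here. The authors' merged peaks are 501 bp long. The deposited summit score was read as −log10 of a q-value. The deposited mean count is a signal the authors averaged over libraries after normalisation, in the same scale for both comparisons. The Wald score, the log2 fold changes with SEs, and all p-values (raw or adjusted) are deposited values of the authors, per the file headers, which use DESeq2's column names. Which group is the numerator was read from the names of the tables. A p was missing for 170 peaks, and an adjusted p for 8922 peaks of the Ad-CGRP-Cre comparison (4 members), which were left out of its counts. Per-library values were not analysed here, so depth is unknown. Covariates in the authors' fit were not given in the sources used here. The description of 1 not amplified library does not list the comparison table.

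Peaks were assigned to intervals by their centre and joined to both tables by name. Coordinates are 1-based. A 95% interval is the deposited log2 fold change and its SE under a normal distribution, computed here. The difference between a peak's changes in both comparisons was tested with a two-sided z test and Benjamini-Hochberg adjustment over all peaks, and checked on simulated data. Named sites are, per interval, the 5 raised and 5 lowered called peaks with the largest absolute change and the 3 of highest mean count, plus every peak of the Krt8 and Krt18 segment; others were named after their values were seen. The members and lists were chosen with earlier results of these data known. Promoters come from the RefSeq table of GRCm38.p6. Values were computed in Python 3.11.15 (pandas 2.3.3, scipy 1.17.1, matplotlib 3.10.9, numpy 2.4.6). Alternatives covered thresholds, the deposited stricter test, a mean count minimum of 20, centring, interval bounds, the adjustment, and summit distance and score.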

Additional observations from a re-analysis of the deposited data

How the results depend on the processing

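In the Ad-CGRP-Cre comparison, where 0 members were called, the alternatives that could have added calls (an adjusted p under 0.10, both centrings and wider bounds) added 0, and stricter ones could not have changed that count. The counts of members with a summit of a pool stayed within 1.5 times the reported ones under all 12 alternative values. In the Nfib comparison 56 of 68 alternative counts stayed within 1.5 times the reported ones. The deposited stricter test gave 23 lowered and 5 raised members, with 10 lowered and 2 raised in the type II interval and 7 lowered in the Krt8 and Krt18 segment. A mean count of at least 20 left 5 raised members, 2 of them in the type II interval. Centring on the median of all peaks (0.60) left 5 raised members, 2 of them in the type II interval, and gave 15 lowered in the type I interval. It moved the lowered share of calls from 69.2% to 83.3% in the type I interval and from 81.5% to 93.1% in the type II interval, and the calls over all peaks to 19.9% raised and 25.6% lowered. In the Krt8 and Krt18 segment 1 peak was raised at an adjusted p under 0.10, and 1 with bounds moved out by 50 kb. In the difference test, Bonferroni adjustment left 0 lower calls in every region and 1 higher call, in the type I interval, and 0 higher in the type II interval. With both comparisons centred, 54 members were lower (15 in the type I and 25 in the type II interval) and 3 higher, with 1 of them in the type II interval. A mean count of at least 20 left 1 higher call there. The cause of these shifts was not tested, apart from the fewer peaks that a count minimum leaves. The uncalled site chr11:99855226-99855726 turned from 0.33 to -0.28 with centring on the median of all peaks.

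No paired analysis was possible because the deposited tables hold fitted values without library columns. Leaving out single libraries was not run for the same reason. Sites with few counts, such as the raised site with a mean count of 5.86, carry wide errors, and the depth behind them is unknown.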

Other observations

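Close neighbours among the members were read side by side. In 14 pairs the peak centres lay within 1500 bp of each other. In the Nfib comparison 13 pairs had log2 fold changes of the same sign and 1 pair had opposite signs. Some pairs shared a peak, and 72 of 97 members lay below 0, so many pairs would share a sign anyway. The share over close pairs of all merged peaks was not computed. Both peaks were called lower in 6 pairs, and 1 was called lower and the other not called in 5. The gap between the deposited values of a pair ran from 0.19 to 2.64. The opposite pair was chr15:101161481-101161981 at -2.03 and chr15:101162770-101163270 at 0.61 in the authors' deposited table, with the second not called (adjusted p = 0.3835, DESeq2).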
